A study of Xenopus laevis with 6 samples.

Results

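The genes described here are the aristaless-like homeobox (alx) and pax9 genes that the authors' table of differentially expressed genes names in the hind limb bud of Xenopus laevis, the African clawed frog. They were found by name, by a rule that takes in copies of alx1, alx4, pax1 and pax9, and 5 gene IDs of the 6943 with a name matched: alx4.L, alx4.S, alx1.L, alx1.S and pax9.L. The suffixes L and S mark the homeologous copies on the subgenomes of this allotetraploid frog. No S copy of pax9 and no gene with the plain name pax1 matched, so these were not analysed here. One more gene, LOC108716602, carries pax1 as a provisional name in that table and is described beside the members without being counted among them. That table holds names only for genes called in at least 1 of its comparisons, so a call on a named gene is not independent evidence that it differs.

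The samples were hind limb buds of wild type tadpoles at stage 51, given no treatment and divided along the axis from limb tip to body wall into a distal, a medial and a proximal segment. Each segment had 2 biological replicate pools of 30 hind limbs, named pool 1 and pool 2 below, and the input to each library was 1 ug of RNA. The segments run from tip to body wall, so none of them separates anterior from posterior cells. In pooled bulk RNA a lower level can come from fewer cells of a type or from less RNA per cell, and these cannot be told apart. Fragments assigned to genes ranged from 10815041 in proximal pool 1 to 35479915 in proximal pool 2, and 75.7% to 78.2% of fragments were assigned. A count of 3, taken as the detection floor, stood for 0.0840 to 0.283 CPM (counts scaled to library size by the TMM method, the unit of level below).

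Alx proteins are transcription factors with a paired-class homeodomain. In the mouse, Alx4 is expressed in anterior limb bud mesenchyme, and its loss leads to Sonic hedgehog expression at the anterior margin and to extra digits on the thumb side. Pax9 is a paired box transcription factor that, with its close relative Pax1, acts in the sclerotome of the somites, the source of the vertebrae. Mouse Pax9 is also expressed in anterior limb mesenchyme, and its loss likewise produces an extra preaxial digit. Alx1, first described as the cartilage homeoprotein Cart1, is known for its part in forming the mesenchyme of the face and skull. The mouse findings are the reason to call these genes anterior limb genes together.

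Along the limb bud axis alx4 and pax9 ran in opposite directions. Both alx4 copies were highest in the proximal segment, stayed high in the medial segment and dropped steeply in the distal one, whereas pax9.L was close to the detection floor in proximal, intermediate in medial and highest in distal. The boundary with the larger step differed as well: it was the outer one, between distal and medial, for alx4, and the inner one, between medial and proximal, for pax9.L. The sums of alx4.L and alx4.S were 13.7 and 11.5 CPM in the distal pools, 181 and 204 CPM in the medial pools and 275 and 290 CPM in the proximal pools.

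**Figure D1:**
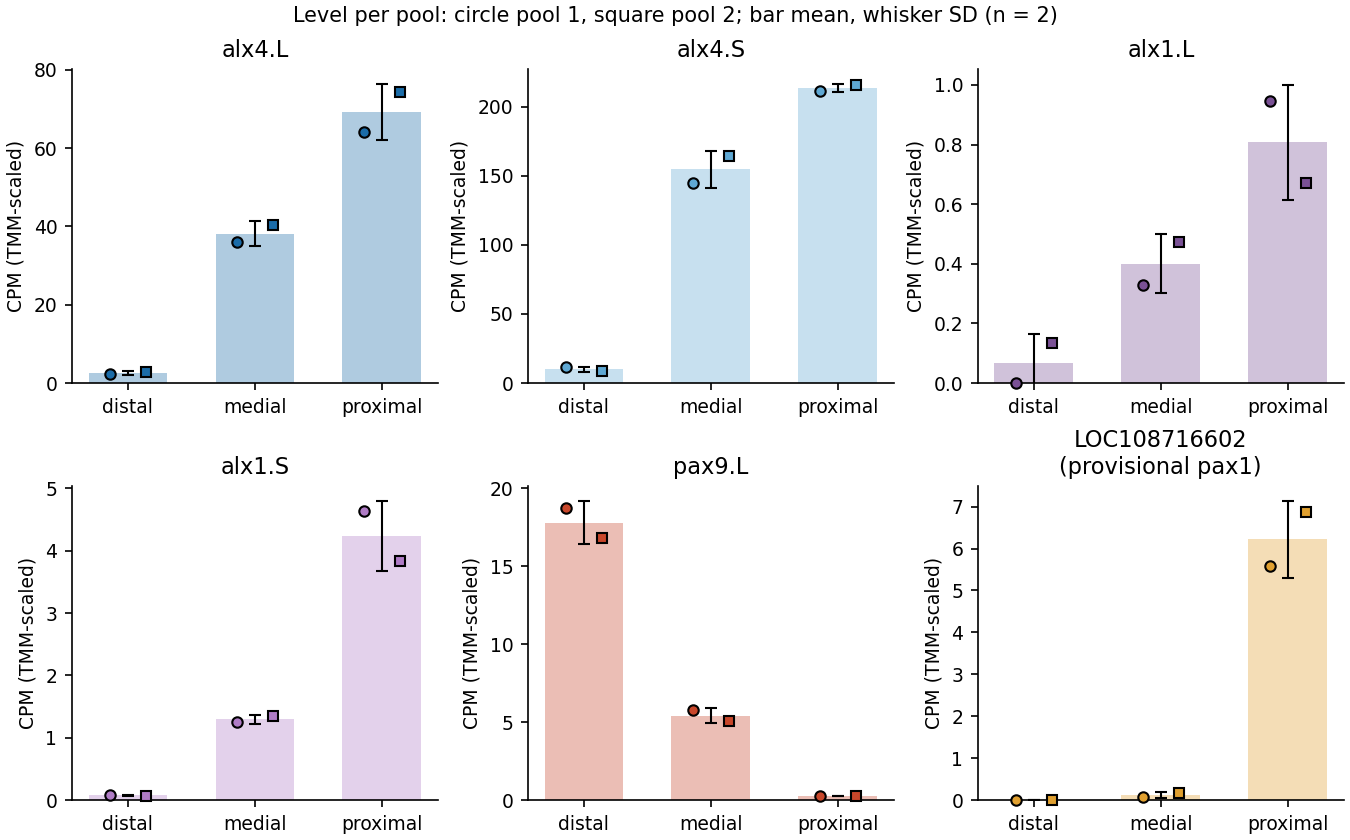
Level of each alx and pax gene in the 3 segments, in TMM-scaled CPM on linear axes with a scale of its own for each gene. Circles are pool 1, squares are pool 2, bars are means and whiskers the SD of 2 pools (the whisker of alx1.L in distal reaches below 0 and is not drawn there); the alx genes and LOC108716602 are highest in proximal and pax9.L is highest in distal.

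alx4.L (gene13602) lies on the plus strand of chromosome 4L, from 7531216 to 7576586 in the authors' annotation, whose genome build is not given in the sources used here, and its exons form 4 blocks. Its levels were 2.25 and 2.90 CPM in distal pools 1 and 2, 36.0 and 40.4 CPM in the medial pools and 64.2 and 74.3 CPM in the proximal pools. No pool of one segment overlapped a pool of another, and the distal counts behind the lowest values were 54 and 43. Distal was lower than proximal by a log2 fold change of −4.78 (SE 0.15), a 27.5-fold difference, with an edgeR quasi-likelihood adjusted p of 4.43e-09. Distal was also lower than medial, by −3.92 (SE 0.15, edgeR adjusted p = 3.92e-08). Medial was lower than proximal by much less, −0.86 (SE 0.11, edgeR adjusted p = 0.000477).

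alx4.S (gene7387) lies on the minus strand of chromosome 4S, from 15537425 to 15583099, also with 4 exon blocks. It was the more abundant copy, with 11.4 and 8.65 CPM in the distal pools, 145 and 164 CPM in the medial pools and 211 and 215 CPM in the proximal pools. The pools of the 3 segments again did not overlap. The log2 fold change was −4.39 between distal and proximal (SE 0.14, edgeR adjusted p = 4.28e-09) and −3.92 between distal and medial (SE 0.14, edgeR adjusted p = 1.86e-08). Between medial and proximal it was −0.46 (SE 0.11, edgeR adjusted p = 0.0271). That last call was lost in 3 of the 6 fits that left out a library: the adjusted p by edgeR was 0.0755 without medial pool 1, 0.0919 without proximal pool 1 and 0.156 without proximal pool 2, with log2 fold changes of −0.38, −0.48 and −0.44.

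All 4 alx copies were called lower in distal than in proximal, a comparison in which 29.5% of the 27007 genes tested were called and 15.9% were called lower. Among the 6912 tested genes with a name, 49.0% were called lower and 39.3% higher there. Across the outer boundary all 4 copies were again called lower in distal, where 25.0% of genes were called and 12.9% were lower. Across the inner boundary 3 of the 4 copies, all but alx1.L, were called lower in medial, where 7.60% of genes were called and 4.88% were lower. pax9.L was called higher in the more distal segment in every one of the 3 comparisons, where 13.6% of genes were higher in distal than in proximal, 12.1% higher in distal than in medial and 2.73% higher in medial than in proximal. Over all genes tested, 1.76% were called lower in all 3 comparisons and 0.711% were called higher in all 3. Except for distal against proximal, shares over named genes only are not given here. The members have names because the authors' table called them, so shares over all genes can make their calls look rarer than they are among such genes.

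The drop at the outer boundary made up 81.9% of the whole log2 difference of alx4.L and 89.4% of that of alx4.S. A test of the outer step minus the inner step gave −3.05 for alx4.L (SE 0.22, edgeR adjusted p = 5.69e-06) and −3.46 for alx4.S (SE 0.20, edgeR adjusted p = 1.63e-06), on the log2 scale. This contrast was called for 9.73% of all genes. Of all genes tested, named or not, 0.322% were called lower in all 3 comparisons with the larger step outside, the class that holds both alx4 copies. For alx4.S this place depends on its medial to proximal call, which was not stable when single libraries were left out, as given above.

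The copies of alx4 were also compared with each other, since homeologous genes may diverge. Their log2 fold changes across the outer boundary differed by 0.00 (alx4.L minus alx4.S, 95% interval −0.44 to 0.45). Across the inner boundary alx4.L fell more than alx4.S, by a difference of −0.40 (95% interval −0.75 to −0.05), which ranged from −0.48 to −0.30 when each library was left out in turn. The difference between distal and proximal log2 fold changes was −0.40 (95% interval −0.84 to 0.05). It became 0.05 without distal pool 1 and −0.72 without distal pool 2, and the distal pools differed in the balance of the copies. These intervals are unadjusted and treat the errors of the genes compared as independent.

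Per length of annotated exon (3321 bases for alx4.L and 5297 for alx4.S), alx4.S was the higher copy in every library. The ratio of alx4.S to alx4.L in FPKM (CPM per kilobase of exon) was 3.18 and 1.87 in the distal pools, 2.53 and 2.54 in the medial pools and 2.06 and 1.82 in the proximal pools. The medial ratios lay above both proximal ones, and the distal pools lay far apart, one above both medial ratios and the other between the proximal ones. The counting left out fragments with several mapping places, and what this took from stretches alike in both copies was not tested.

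pax9.L (gene13748) lies on the plus strand of chromosome 8L, from 86054516 to 86085692, with 5 exon blocks and 2610 bases of exon. Its levels were 18.8 and 16.8 CPM in the distal pools, 5.76 and 5.08 CPM in the medial pools and 0.283 and 0.252 CPM in the proximal pools. The groups did not overlap, and the proximal values rested on 3 and 9 fragments, at the detection floor in pool 1. On the log2 scale distal exceeded proximal by 6.07 (SE 0.24, edgeR adjusted p = 1.44e-08), and 36 of the 27007 genes had a larger fitted rise. Medial exceeded proximal by 4.36 (SE 0.26, edgeR adjusted p = 1.95e-06), where 9 genes had a larger one. Distal exceeded medial by 1.72 (SE 0.14, edgeR adjusted p = 7.16e-06).

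For pax9.L the inner boundary therefore held 71.7% of the whole log2 difference. The outer step minus the inner step was −2.64 (SE 0.37, edgeR adjusted p = 0.000731). Among all genes, 0.0481% were called higher in all 3 comparisons with the larger step at the inner boundary. In the authors' deposited table, fold changes are positive where the proximal side is higher. It lists pax9.L at −6.10 (SE 0.48) for proximal against distal and −4.39 (SE 0.48) for proximal against medial. These SEs are larger than the edgeR ones of 0.24 and 0.26. With 3 and 9 proximal fragments, the edgeR SEs of pax9.L that involve proximal, that of the step contrast included, may be too small.

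**Figure D2:**
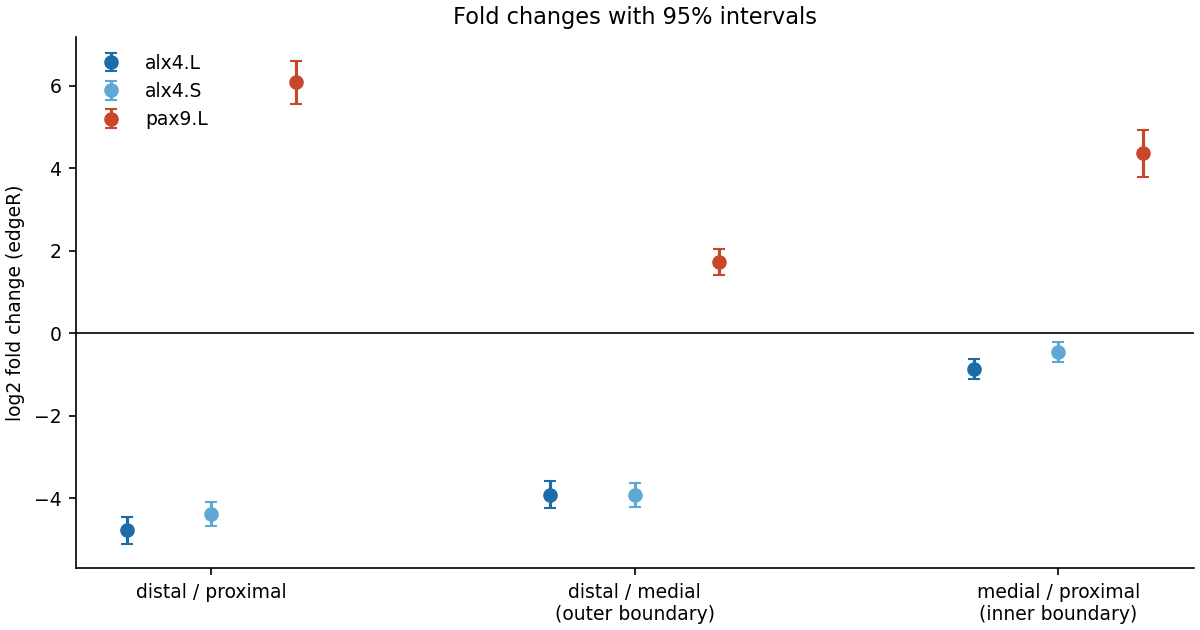
log2 fold changes by edgeR with 95% intervals for alx4.L, alx4.S and pax9.L, on the vertical axis, in the 3 comparisons on the horizontal axis, the first-named segment on top. Both alx4 copies lie below 0 in each comparison and pax9.L lies above 0 in each. The values are −3.92, −3.92 and 1.72 across the outer boundary and −0.86, −0.46 and 4.36 across the inner one. The intervals of pax9.L against proximal rest on few proximal fragments and may be too narrow.

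The contrast between the genes was taken on the same libraries, gene against gene. The log2 fold change of pax9.L minus that of alx4.L was 10.86 between distal and proximal (95% interval 10.24 to 11.48), 5.64 between distal and medial (5.18 to 6.10) and 5.22 between medial and proximal (4.60 to 5.84). Set against alx4.S the differences were 10.46, 5.64 and 4.82. The intervals that involve proximal use the edgeR SE of pax9.L, which rests there on 3 and 9 fragments, and may be too narrow. The divergence was thus of like size at the boundaries, although alx4 supplied most of it at the outer boundary and pax9.L most of it at the inner one.

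Within a library, the ratio of pax9.L to the summed alx4 copies depends on how libraries are scaled only through any amount added to each level. With 0.1 CPM added to each, log2 of this ratio was 0.45 and 0.54 in the distal pools, −4.95 and −5.30 in the medial pools and −9.49 and −9.68 in the proximal pools. The ratio thus turned over along the limb bud, with pax9.L ahead of alx4 in the distal pools and far behind it elsewhere. The mean was 0.50 ± 0.06 in distal, −5.13 ± 0.25 in medial and −9.59 ± 0.14 in proximal (SD, n = 2 each). The proximal mean became −7.80 with 1 CPM added, since pax9.L was near the floor there. With 3 and 9 proximal fragments of pax9.L, the proximal SD does not measure a spread. Per length, pax9.L in the distal pools stood at 2.54 and 2.57 times the summed alx4 FPKM. In the medial pools alx4 stood at 17.3 and 22.1 times pax9.L, and in the proximal pools at 545 and 652 times.

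**Figure D3:**
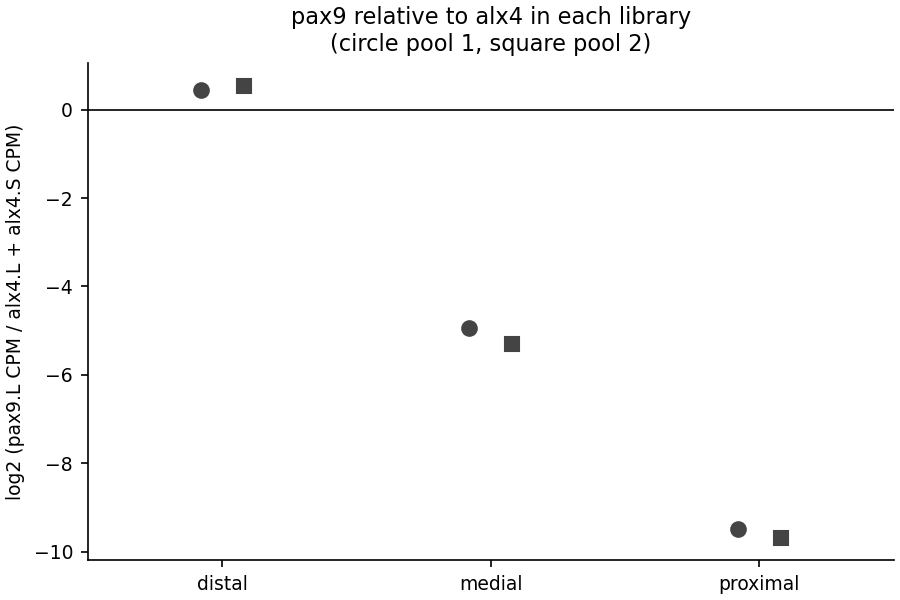
log2 ratio of pax9.L to the sum of alx4.L and alx4.S in CPM (0.1 added to each) on the vertical axis, by segment, with circles for pool 1 and squares for pool 2. The distal pools lie just above 0, the medial pools near −5 and the proximal pools below −9.

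The alx1 copies ran in the same direction as alx4, at much lower levels. alx1.S (gene41488, chromosome 3S, minus strand, 91757944 to 91777387) was at 0.0834 and 0.0675 CPM in the distal pools, 1.25 and 1.34 CPM in the medial pools and 4.63 and 3.84 CPM in the proximal pools. The distal values stood for 2 and 1 fragments. By fragment counts summed over pools, alx1.S was 51.9 times lower in distal than in proximal (95% exact Poisson interval 17.5 to 254) and 16.7 times lower in distal than in medial (5.50 to 83.1), intervals that cover counting error only. Both differences were called (edgeR adjusted p = 1.88e-06 and 0.000138).

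For alx1.S the medial to proximal difference was −1.67 on the log2 scale (SE 0.24, edgeR adjusted p = 0.00119). By edgeR this inner step was larger than that of alx4: the difference was −0.81 against alx4.L (95% interval −1.39 to −0.23) and −1.21 against alx4.S (−1.80 to −0.62). The SE of alx1.S for this comparison in the authors' deposited table was larger, at 0.44, so these intervals may be too narrow. For alx1.S the outer step minus the inner one missed the threshold (edgeR adjusted p = 0.0583, and 0.0478 with no filter on low counts).

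alx1.L (gene10030, chromosome 3L, plus strand, 46448902 to 46466723) was the weakest member. It had 0 and 2 fragments in the distal pools, 9 and 13 in the medial pools and 10 and 24 in the proximal pools, or at most 0.945 CPM in any library. Summed counts put it 14.2 times lower in distal than in proximal (95% exact Poisson interval 3.65 to 122; edgeR adjusted p = 0.00541) and 7.78 times lower in distal than in medial (1.91 to 68.3; edgeR adjusted p = 0.0410). Both calls were lost without distal pool 1 (edgeR adjusted p = 0.0858 and 0.354). The call against medial was also lost without medial pool 2 (adjusted p = 0.119), without proximal pool 1 (0.0579), without proximal pool 2 (0.0576) and with DESeq2 (0.127). Between medial and proximal, the log2 difference of alx1.L was −0.90 (SE 0.51, edgeR adjusted p = 0.423), which was not detectable as a difference at this depth.

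LOC108716602 (gene47773, chromosome 5L, minus strand, 34431548 to 34444197), with the provisional name pax1, ran against pax9.L. It had no fragment in either distal pool, 2 and 5 fragments in the medial pools and 59 and 245 in the proximal pools, or 5.57 and 6.86 CPM in proximal. Its level in distal was at least 30.7-fold lower than in proximal, taking 3 counts per library as the floor (edgeR adjusted p = 1.78e-06). Medial was lower than proximal by −5.57 on the log2 scale (SE 0.37, edgeR adjusted p = 9.53e-06). The SE in the authors' deposited table was larger, at 0.68. In mice Pax1 is known from the sclerotome and the limb girdles. Distal and medial were both at or near the floor, and their difference is not given as a fold (edgeR adjusted p = 0.0561, which was 0.0448 with a replicate block and 0.0294 without medial pool 1).

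Set side by side per length, the order of the genes turned round along the limb bud. In distal pax9.L led with 6.82 ± 0.53 FPKM, followed by alx4.S with 1.90 ± 0.37 and alx4.L with 0.776 ± 0.139 (SD, n = 2 each), and the alx1 copies were at the floor. The medial order was alx4.S with 29.2 ± 2.52 FPKM, alx4.L with 11.5 ± 0.94, pax9.L with 2.08 ± 0.18, alx1.S with 0.988 ± 0.052 and alx1.L with 0.315 ± 0.079. In proximal it was alx4.S with 40.2 ± 0.57 FPKM, alx4.L with 20.9 ± 2.14, alx1.S with 3.23 ± 0.43, alx1.L with 0.635 ± 0.151 and pax9.L with 0.103 ± 0.008. That SD of pax9.L rests on 3 and 9 fragments, too few to measure a spread. In proximal, LOC108716602 stood at 3.10 ± 0.45 FPKM, and its pools overlapped those of alx1.S, so these neighbours in the order did not differ beyond their spread.

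**Figure D4:**
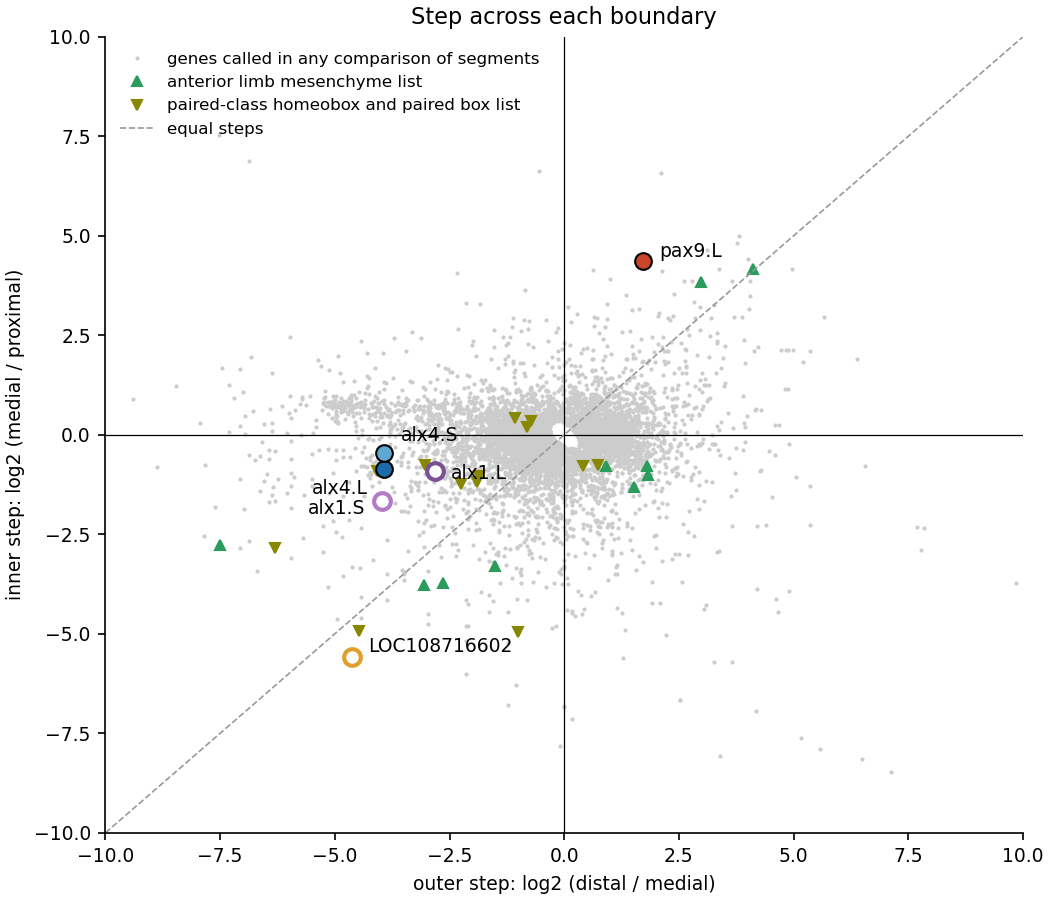
Outer step (log2 of distal over medial, horizontal) and inner step (log2 of medial over proximal, vertical) by edgeR, for the 30.3% of tested genes called in the test of any difference among segments (small dots), the copies on the anterior limb and paired gene lists (triangles) and the alx and pax genes (circles). Open circles mark genes with 3 or fewer fragments in each distal pool, whose fitted outer step depends on the prior count; the alx4 copies lie far left of the dashed line of equal steps and pax9.L lies above it.

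A list of 11 genes of anterior limb mesenchyme, apart from the members, was compared with them, with roles known mainly from the mouse. The authors' table named 5 of the genes, as 10 copies. Between distal and proximal 4 copies were lower and 4 higher, with a median log2 fold change of 0.16, against a median of −0.36 over all named genes tested. The lower ones were irx3 and irx5, Iroquois homeobox genes that act in early proximal and anterior limb development. irx3.S had 1.92 and 1.82 CPM in the distal pools, 11.5 and 12.1 CPM in the medial pools and 149 and 161 CPM in the proximal pools.

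The irx3 copies shared the direction of alx4 but had their larger step at the other boundary. The inner step of irx3.S was −3.71 (SE 0.10) and the outer one −2.65 (SE 0.14), and the outer minus the inner step was 1.06 (edgeR adjusted p = 0.00712), where it was negative for alx4. For irx3.L it was 1.79 (edgeR adjusted p = 0.000594). The irx5 copies did not share this: for irx5.S the contrast was 0.70 and was not called (edgeR adjusted p = 0.176), and for irx5.L it was called with the sign of alx4 (edgeR adjusted p = 0.00118), though its distal pools were at 0 and 0.0675 CPM, so the size of its outer step is not given. msx1 and msx2, homeobox genes of the limb mesenchyme that respond to BMP, were lowest in medial in all 4 copies, and msx2.S stood at 132 and 131 CPM in the distal pools, 40.4 and 34.4 CPM in the medial pools and 78.0 and 71.8 CPM in the proximal pools.

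Of 32 other paired-class homeobox and paired box genes listed, 8 were named, as 13 copies. Between distal and proximal, 12 of these were called lower and none higher, with a median log2 fold change of −3.10, so that pax9.L ran against its named relatives. Over all named genes tested, 49.0% were called lower there and 39.3% higher. Across the outer boundary 11 were lower and 2 higher, and across the inner one 8 were lower and 1 higher. shox2.S, the short stature homeobox gene needed for the proximal limb skeleton in the mouse, had levels above those of alx4.L but a like course from segment to segment, with 4.53 ± 0.97 CPM in distal, 77.9 ± 3.40 in medial and 145 ± 4.61 in proximal. gsc.L (goosecoid) had 1.84 and 1.42 CPM in the distal pools, 2.64 and 4.06 CPM in the medial pools and 98.1 and 108 CPM in the proximal pools. It fell across both boundaries, by −1.01 at the outer (edgeR adjusted p = 0.0119) and −4.94 at the inner one (edgeR adjusted p = 6.46e-08), with an outer minus inner step of 3.94 (edgeR adjusted p = 6.85e-05). For the other copy, gsc.S, that contrast was not called (edgeR adjusted p = 0.854), and its distal pools were at 0.0834 and 0.0675 CPM.

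prrx1, a paired-related gene that marks limb mesenchyme, changed little between distal and proximal by comparison. prrx1.L stood at 172 and 170 CPM in the distal pools, 343 and 374 CPM in the medial pools and 273 and 261 CPM in the proximal pools, lower in distal than in proximal by −0.64 on the log2 scale (SE 0.10, edgeR adjusted p = 0.000392). Across the outer boundary prrx1.L was lower in distal by −1.07 (edgeR adjusted p = 1.21e-05). For prrx2.S the distal to proximal difference was −0.02 (SE 0.09, edgeR adjusted p = 0.912). Its course was not flat, with 115 ± 0.69 CPM in distal, 69.0 ± 6.18 in medial and 116 ± 1.41 in proximal. Steep courses such as that of shox2.S were thus not shared by every paired-class gene.

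Posterior and hedgehog genes ran mostly with pax9.L. Of 15 listed, 12 were named, as 20 copies. Between distal and proximal 18 were called higher and 2 lower, with a median log2 fold change of 2.20. Over all named genes tested, 39.3% were called higher there and 49.0% lower. Across the outer boundary 16 were higher, 2 lower and 2 not called, and across the inner one 13 were higher and 7 not called. The 2 copies lower in distal than in proximal were those of tbx2, a T-box repressor of the limb margins. hand2.L, whose product activates Sonic hedgehog in the posterior limb bud of the mouse, stood at 510 and 454 CPM in the distal pools, 338 and 387 CPM in the medial pools and 90.9 and 71.7 CPM in the proximal pools. Like pax9.L it had its larger step at the inner boundary, with an outer minus inner step of −1.76 (edgeR adjusted p = 0.000296). Over the 20 copies that contrast was called negative for 7, positive for 2 and not called for 11. A negative value marks a larger inner step only for genes that rise toward distal. Both tbx2 copies were among the negative ones (tbx2.S −1.25, edgeR adjusted p = 0.0184, and tbx2.L −1.31, edgeR adjusted p = 0.0202). They fell toward distal with the larger step at the outer boundary, as alx4 did. The positive ones were bmp2.S, a bone morphogenetic protein (2.86, edgeR adjusted p = 0.000167), and grem1.L, a BMP antagonist (0.89, edgeR adjusted p = 0.0106), and both had their lowest mean in medial.

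A list of 13 sclerotome genes and partners of Pax1 and Pax9 had 10 named genes, as 18 copies. Between distal and proximal 2 copies were called higher and 14 lower, with a median log2 fold change of −1.20. The shares over all named genes tested were 39.3% higher and 49.0% lower. nkx3-2.L, a homeobox gene that Pax1 and Pax9 activate in the sclerotome of the mouse, had 2.34 and 1.76 CPM in the distal pools, 9.79 and 14.6 CPM in the medial pools and 7.75 and 8.48 CPM in the proximal pools. It was thus lowest where pax9.L was highest (log2 difference from proximal −1.97, SE 0.24, edgeR adjusted p = 0.000116). The 2 copies that rose were foxf2.L and foxf2.S, forkhead genes, with 14.5 ± 0.29 and 29.5 ± 0.91 CPM in distal and under 1 CPM in every medial and proximal library.

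The genes whose course was most like that of a member were sought among 4594 other named genes with at least 5 CPM in their highest segment, by the root mean square difference of log2 CPM over the 6 libraries after subtracting each gene's mean. Around alx4.L the 5 closest were gdf5.S, a growth factor of joint formation (0.22 log2 units), fbln5.S, an elastic fibre protein (0.26), nphs1.S (0.26), shox2.S (0.27) and nfix.L (0.28). alx4.S lay 0.28 from alx4.L, and 4 of the 4594 genes were closer to alx4.L than it. Closest to alx4.S were corin.S, a membrane protease (0.19), shox2.S (0.26), has2.L, which makes hyaluronan (0.26), angptl2.S (0.26) and palmd.S (0.27). These values are descriptions over 6 libraries that share their segments, and carry no test. Some of these genes had few distal fragments, with distal means of 0.185 CPM for fbln5.S, 0.219 for nphs1.S and 0.130 for palmd.S. Their distances therefore depend on the prior count used for log2 CPM. By edgeR the distal to proximal log2 fold changes were −5.23 (gdf5.S), −5.62 (fbln5.S), −5.49 (nphs1.S) and −4.97 (shox2.S). Those of alx4.L and alx4.S were −4.78 and −4.39, so the order by distance need not hold for fitted changes.

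pax9.L had no neighbour as close. The nearest were slc39a12.S, a zinc transporter (0.54), nos1.L, a nitric oxide synthase (0.56), cyp26c1.L, which breaks down retinoic acid (0.65), a2ml1.L (0.69) and sall3.S, a spalt transcription factor (0.70). slc39a12.S had 134 ± 2.04 CPM in distal, 25.7 ± 2.00 in medial and 3.77 ± 1.88 in proximal. The proximal pools of these genes differed from each other more than those of pax9.L did, as with nos1.L at 53.8 ± 0.38 CPM in distal, 13.1 ± 0.93 in medial and 1.97 ± 0.96 in proximal. The proximal pools of pax9.L held only 3 and 9 fragments, too few for their closeness to measure a spread.

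**Figure D5:**
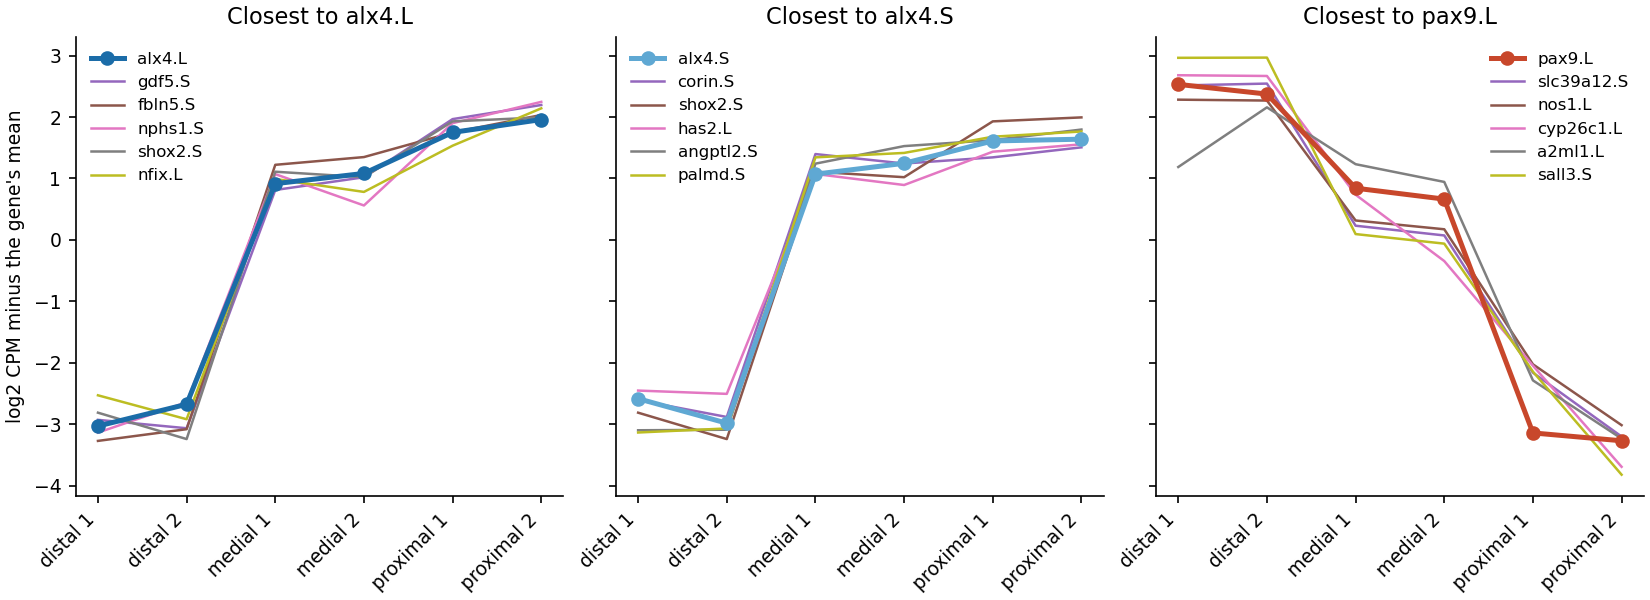
log2 CPM minus each gene's mean, on the vertical axis, in the 6 libraries on the horizontal axis, for alx4.L, alx4.S and pax9.L (thick lines with points) and the 5 genes closest to each (thin lines). The alx4 groups step up between the distal and medial libraries and climb less after it, whereas pax9.L steps down mainly between the medial and proximal libraries.

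Markers of other tissues also differed between the segments. Of 10 limb mesenchyme markers, 8 were named as 15 copies, all detected in every library, and their summed level was 1209 to 1240 CPM in distal, 1610 to 1753 in medial and 1476 to 1500 in proximal. Between distal and proximal 5 of these copies were called higher, 7 lower and 3 not called, so the sum holds opposite changes. Over all named genes tested, 39.3% were called higher there and 49.0% lower. The alx4 copies equalled 1.10% and 0.955% of the mesenchyme sum in the distal pools and 11.2% and 11.7% in the medial pools. In the proximal pools they equalled 18.4% and 19.6% of that sum. pax9.L equalled 1.51% and 1.39%, 0.358% and 0.290%, and 0.0189% and 0.0171% of it in the distal, medial and proximal pools.

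Cartilage markers (9 of 11 named, 14 copies) summed to 1151 to 1165 CPM in distal, 1604 to 1731 in medial and 2033 to 2361 in proximal. Muscle markers (8 of 15 named, 13 copies, 3 and 4 of them at 0 in the distal pools and 1 in a medial pool) summed to 11.2 to 24.7, 30.6 to 35.2 and 59.1 to 84.5 CPM in the same order, and nerve and glia markers (3 of 10 named, 4 copies, 1 at 0 in each distal pool and in 1 medial pool) to 9.64 to 11.8, 31.0 to 37.3 and 34.1 to 41.8 CPM. Endothelial markers (7 of 13 named, 11 copies) summed to 264 to 295, 354 to 386 and 449 to 460 CPM. Blood markers (15 of 19 named, 24 copies, 1 at 0 in a distal pool) summed to 1365 to 2735 CPM in distal, 60290 to 70138 in medial and 33076 to 45435 in proximal. Ectoderm markers (6 of 12 named, 11 copies) were highest in distal, with 446 to 451 CPM, against 210 to 320 in medial and 260 to 292 in proximal. The part of these tissues in the courses of alx4 and pax9.L was not tested.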

How the data were processed

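Count data from 6 libraries were used. Per the file headers, the authors used featureCounts 2.0.1 for paired-end fragments and otherwise its defaults, so strand was not used and fragments mapping to several places or overlapping several genes were not counted. The submitters' processing notes also list Trimmomatic 0.39, HISAT2 2.2.1, SAMtools 1.10 and DESeq2 1.30.1. Genome build and annotation version are not given in the sources used here. The values are raw counts as deposited, with exon lengths and counts per assignment category as other columns written by the authors' tool. The authors' deposited table of called genes gives for each comparison a gene's mean signal, log2 fold change, Wald score and p-values, under DESeq2 column names, and is the source of the gene names.

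The edgeR filter filterByExpr, grouped by segment with a minimum count of 10 and a total of 15, passed 27007 of 51061 gene IDs and all 5 members. After TMM scaling, edgeR 4.0.16 under R 4.3.3 gave the quasi-likelihood tests (robust), all 6 libraries in one fit with segment as the only factor and 3 residual degrees of freedom. P-values were adjusted by Benjamini-Hochberg over all genes tested, and genes under 0.05 are called. SEs were derived from each log2 fold change and its F statistic (size over root F). CPM and FPKM use TMM-scaled library sizes, and log2 CPM a prior count of 2. With 2 pools a group, an exact permutation test over samples could not reach significance and was not used. The self-check of the fit on simulated counts passed. Intervals and floors cover counting error only where they come from counts.

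Members and gene lists were chosen with earlier results of these data known. The genes named are the members, copies on 4 lists (anterior, posterior, paired, sclerotome) and, for alx4.L, alx4.S and pax9.L, the 5 closest genes; LOC108716602, alx1 and the contrast of the outer with the inner step were added after the files were read. Alternatives were RLE size factors, no filter, a minimum of 10 counts per library, a replicate block, DESeq2 1.42.0, limma-voom (limma 3.58.1), no robust estimation, fits of the 4 libraries compared and leaving out each library.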

Additional observations from a re-analysis of the deposited data

How the results depend on the processing

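The labels number the pools 1 and 2 in each segment, and a colour word in the titles, black or red, goes with the number in every segment, but no label says whether number or colour marks shared limbs or a shared batch. Deviations of same-numbered pools correlated by 0.05 (distal and medial), 0.03 (distal and proximal) and 0.20 (medial and proximal) across genes, not over 0.1 in every pair, so the pools were not taken as paired and the pairing remains unknown. Adding the pool number as a replicate block gave 8812 calls for distal against proximal (7975 without it), 7864 across the outer boundary (6753) and 2629 across the inner one (2053). Among the members the block changed no call, and for LOC108716602 between distal and medial it brought one (fitted log2 value −4.58), as did no filter on low counts (−4.63).

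alx4.L kept its direction and its call in each comparison under every alternative run, and pax9.L did so under every alternative that did not remove it. The same held for alx4.S except between medial and proximal. There its log2 fold change ranged from −0.55 to −0.38 over the fits without 1 library. The log2 fold change of alx1.L between distal and medial was −2.86 with DESeq2, which did not call it. Over the fits without 1 library it ranged from −6.35 to −1.53, and between distal and proximal from −7.25 to −2.44. For LOC108716602 between distal and medial the fitted value ranged from −5.08 to −3.83; with no distal fragment, its fitted values depend on the prior count and give no size. The outer minus inner step of alx1.S was −2.30 with no filter, which called it. The log2 ratio of pax9.L to alx4 in proximal was −7.80 with 1 CPM added; that value is set by the amount added, since pax9.L was below it.

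Leaving out 1 library gave 4598 to 9378 calls for distal against proximal, 3188 to 6713 for distal against medial, 996 to 2617 for medial against proximal, 4533 to 9497 for any difference and 1552 to 3206 for the outer against the inner step. Differences between log2 fold changes ranged over the same fits from 10.56 to 11.09 (distal to proximal) and 5.35 to 5.87 (distal to medial) for pax9.L minus alx4.L, from −0.72 to 0.045 and −0.32 to 0.44 for alx4.L minus alx4.S, and from −1.08 to −0.60 for alx1.S minus alx4.L between medial and proximal. The cause of these movements was not tested. At least 10 counts in every library removes pax9.L, alx1.L, alx1.S and LOC108716602, which then have no value. Depth limits the distal levels of alx1 and the proximal level of pax9.L, each resting on fewer than 10 fragments a library.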

Other observations

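The genes annotated next to alx4.L were looked at after its values had been seen. On its 5′ side lie Xelaev18021825m, 4652 bases away, and Xelaev18021824m, 23726 bases away, both on the opposite strand and with no other name in the authors' table. Xelaev18021825m had 0.167 and 0.405 CPM in the distal pools, 5.50 and 4.83 CPM in the medial pools and 11.4 and 9.66 CPM in the proximal pools. Xelaev18021824m had 0.292 and 0.338 CPM in the distal pools, 7.85 and 6.90 CPM in the medial pools and 13.8 and 13.7 CPM in the proximal pools. Both followed the course of alx4.L, with root mean square differences from it of 0.26 and 0.22 log2 units, in the range of its 5 closest named genes. Their distal to proximal log2 fold changes were −5.30 (SE 0.31, edgeR adjusted p = 3.04e-07) and −5.45 (SE 0.24, edgeR adjusted p = 3.28e-08). The detection floor was 0.125 CPM in distal pool 1 and 0.203 CPM in distal pool 2, so their distal values rest on few fragments. The distances from alx4.L thus depend on the prior count, and the fold changes and SEs are uncertain. On the 3′ side, the nearest gene ID, gene3251, lay 11033 bases away and had a log2 fold change of −0.25 (edgeR adjusted p = 0.0561). Around alx4.S the nearest annotated genes on its 5′ side lay 77807 bases away, with no fragment in any library, and 80638 bases away (cd82.S, log2 fold change −0.48, edgeR adjusted p = 0.00394). The nearest gene on the 3′ side of alx4.S, 6902 bases away, had a log2 fold change of −0.20 (edgeR adjusted p = 0.218). The gene ID nearest to pax9.L, 27 bases away, had too few counts to be tested (19 fragments in all), and the nearest tested one, 4953 bases away, differed between distal and proximal by 0.33 on the log2 scale (edgeR adjusted p = 0.177). None of the members shared exons with another annotated gene.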
